A study of Mus musculus with 6 samples.

Results

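The regional markers described here are 7 genes that are strong in the thalamus and neighbouring deep parts of the brain: Tcf7l2, Zic1, Lef1, Prkcd, Slc17a6, Ntng1 and Rgs16. They were taken by symbol from the 24459 genes counted, and their 44 isoforms by gene symbol from the 75457 isoforms counted. The genes were chosen by their levels in these same 6 libraries, since differences between the libraries were already known, so their values are given as a description without a test. The libraries came from mice on day 5 after intracerebral haemorrhage, a bleed into the brain, and from the tissue bordering the blood clot. TEPP-46, an activator of the M2 form of pyruvate kinase, was given on consecutive days after the bleed to one group of wild-type mice and vehicle to the other. There were 3 TEPP-46 libraries, headed T1, T2 and T3, and 3 vehicle libraries, headed C1, C2 and C4. The letter ties a library to its group, and its number to no particular mouse. Nothing in the labels says that the libraries of a group came from separate animals, and the sources used here do not give strain, sex, age or the way the bleed was made.

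The thalamus relays sensory and motor signals to the cortex through glutamate neurons, and it lies between the hypothalamus below, the habenula and the ventricle with its choroid plexus above, and the striatum to the side. Its relay neurons load glutamate into vesicles with the transporter VGLUT2, encoded by Slc17a6, while cortical and hippocampal neurons mostly use VGLUT1, encoded by Slc17a7. Genes switched on by position therefore show which regions a dissected piece of brain holds. In bulk tissue, fewer cells of a type and less RNA per cell cannot be told apart. None of the 7 genes is a marker of neurons of the thalamus alone: Tcf7l2 is also active in maturing oligodendrocytes, Lef1 in brain endothelium, and Zic1 in the septum, meninges and cerebellum.

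Alternative stretches of the coding part distinguish isoforms of 4 of the genes, and they are shown because the isoform shares given further on count them. Each sequence runs 5′ to 3′ on the strand of its gene. The stretch is in capitals, with 15 bases of the joined transcript on each side in lower case. Sequences are from GENCODE M21 transcripts on GRCm38.
Tcf7l2, chr19:55924530-55924580: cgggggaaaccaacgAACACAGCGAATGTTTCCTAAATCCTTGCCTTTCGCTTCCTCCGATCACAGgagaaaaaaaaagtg
Prkcd, chr14:30602659-30602736: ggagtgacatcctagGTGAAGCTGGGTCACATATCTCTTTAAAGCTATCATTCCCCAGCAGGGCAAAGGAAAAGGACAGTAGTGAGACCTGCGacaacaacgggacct
Lef1, chr3:131191023-131191106: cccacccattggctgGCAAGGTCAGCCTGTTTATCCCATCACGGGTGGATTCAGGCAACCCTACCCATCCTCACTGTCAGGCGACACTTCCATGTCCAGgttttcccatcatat
Ntng1, chr3:109841510-109841575: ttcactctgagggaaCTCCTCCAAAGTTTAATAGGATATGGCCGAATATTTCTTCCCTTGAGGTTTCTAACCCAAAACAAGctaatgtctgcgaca
They hold 51 bases in Tcf7l2, 78 in Prkcd, 84 in Lef1 and 66 in Ntng1. All 4 lengths divide by 3, so each adds whole codons, 17 in Tcf7l2, 26 in Prkcd, 28 in Lef1 and 22 in Ntng1. In mouse Prkcd the stretch is the insertion of the splice form known as PKC-delta II, which lies in the hinge of the kinase.

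Tcf7l2 also has transcripts that begin far inside the gene. They lack the first exons, which encode the part of the protein that binds β-catenin. The 300 bases around the annotated starts, 250 before and 50 after each, are shown for the upstream start first and an internal start second, with every CG dinucleotide in capitals. Both are RefSeq promoter windows of GRCm38.p6 on the plus strand. The internal window is set around a RefSeq start at 55895321. It holds no start of the internal isoforms counted further on, which begin at 55894534, 55895510 and 55898553.
Tcf7l2 upstream start, chr19:55741560-55741859: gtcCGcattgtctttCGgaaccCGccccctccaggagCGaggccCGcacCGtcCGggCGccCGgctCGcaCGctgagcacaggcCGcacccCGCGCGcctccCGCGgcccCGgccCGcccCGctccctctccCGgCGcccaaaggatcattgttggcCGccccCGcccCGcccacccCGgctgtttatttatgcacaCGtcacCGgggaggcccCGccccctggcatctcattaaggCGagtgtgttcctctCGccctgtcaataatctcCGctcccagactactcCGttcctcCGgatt
Tcf7l2 internal start, chr19:55895071-55895370: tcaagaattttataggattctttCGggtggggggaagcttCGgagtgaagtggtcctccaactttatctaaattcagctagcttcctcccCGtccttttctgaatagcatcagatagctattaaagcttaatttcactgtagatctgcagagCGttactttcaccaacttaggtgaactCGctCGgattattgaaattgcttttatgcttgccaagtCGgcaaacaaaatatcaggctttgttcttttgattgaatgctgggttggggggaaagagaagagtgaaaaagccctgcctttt
The upstream window had a GC content of 70.0% and 34 CG dinucleotides, and the internal window 42.0% and 7. The median GC content of all 32851 promoter windows was 52.7%. The core bound by TCF and LEF proteins, CTTTGAT or CTTTGAA on either strand, was in 0 of the 13 windows of the 7 genes and in 8.65% of all windows. That count says only that these letters are not in these windows.

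Tcf7l2 (chr19:55741820-55933654, plus strand) encodes a transcription factor of the Wnt pathway that is kept on in thalamic neurons. It had 573, 206 and 333 counts in T1, T2 and T3, against 371, 89 and 23 in C1, C2 and C4. Scaled to CPM, the count divided by the library's total and put on a common scale, these were 95.1, 36.6 and 62.7 CPM in the TEPP-46 libraries, against 69.5, 15.6 and 4.35 CPM in the vehicle libraries. The highest library, T1, stood 21.9-fold above the lowest, C4, and a smaller range was found in 99.4% of the 14388 genes with a count in every library, whose median range was 1.74-fold. The groups overlapped, because C1 lay above T2 and T3. From high to low the order was T1, C1, T3, T2, C2 and C4, and only the counting intervals of C1 and T3 overlapped between neighbours. With n = 3 libraries each, the mean and SD of Tcf7l2 were 64.8 ± 29.3 CPM for TEPP-46 and 29.8 ± 34.8 CPM for vehicle. The log2 fold change was 1.12. Without C1 the log2 fold change was 2.66, and without C4 it was 0.61.

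Prkcd (chr14:30595354-30626210, minus strand), the protein kinase C form delta of thalamic relay neurons, had the next widest range, 6.51-fold. It stood at 78.2, 40.7 and 54.1 CPM in T1, T2 and T3, against 81.3, 34.4 and 12.5 CPM in C1, C2 and C4. C1 and T1 had overlapping counting intervals at the top, and C4 lay apart at the bottom, as for Tcf7l2. The mean and SD of 3 libraries were 57.7 ± 19.0 CPM for TEPP-46 and 42.7 ± 35.1 CPM for vehicle. The log2 fold change was 0.43, and it was 1.27 without C1 and -0.01 without C4.

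Slc17a6 (chr7:51622006-51671119, plus strand), the VGLUT2 transporter of subcortical glutamate neurons, stood at 21.6, 14.2 and 25.2 CPM in the TEPP-46 libraries, against 20.4, 14.2 and 8.32 CPM in the vehicle libraries. T2 and C2 had nearly the same level, and C4 lay apart below every other library. Ntng1 (chr3:109780040-110144011, minus strand), the membrane-anchored netrin G1 on axons from the thalamus, stood at 20.1, 15.1 and 15.3 CPM in TEPP-46, against 21.9, 11.6 and 7.0 CPM in vehicle. Rgs16 (chr1:153740349-153745468, plus strand), a GTPase activator that shortens G protein signals, stood at 16.1, 9.25 and 11.5 CPM in TEPP-46, against 16.7, 10.7 and 6.24 CPM in vehicle. For Ntng1 and Rgs16 every library's counting interval overlapped that of its neighbours in the order, and C1 was highest and C4 lowest in both. The log2 fold changes were 0.49 for Slc17a6, 0.31 for Ntng1 and 0.12 for Rgs16. That of Slc17a6 was 0.83 without C1 and 0.22 without C4, that of Ntng1 was 0.83 without C1 and 0.00 without C4, and that of Rgs16 was -0.16 without C4 and -0.12 without T1.

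Zic1 (chr9:91358058-91365810, minus strand), a zinc finger transcription factor of the dorsal midline and of medial thalamic and septal cells, was the 1 gene of the 7 whose groups did not overlap. It had 91, 78 and 80 counts in T1, T2 and T3, against 44, 41 and 25 in C1, C2 and C4. These were 15.1, 13.9 and 15.1 CPM in TEPP-46, against 8.24, 7.19 and 4.73 CPM in vehicle. Every library's counting interval overlapped that of its neighbours in the order. This includes T2, whose interval began at 10.97 CPM, and C1, whose interval ended at 11.06 CPM. Every TEPP-46 library lay above every vehicle library in 5.67% of the 14441 genes tested, and every one below in 5.76%. Nothing is read from the count of 1 in 7, since Zic1 was chosen with this difference known. Its mean and SD were 14.7 ± 0.702 CPM for the 3 TEPP-46 libraries and 6.72 ± 1.80 CPM for the 3 vehicle libraries. The log2 fold change was 1.11. It kept between 0.92 and 1.28 when any 1 library was left out. The 2 isoforms of Zic1 encode proteins of the same length.

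Lef1 (chr3:131110471-131224356, plus strand), the close relative of Tcf7l2 that is used in thalamic neurons and in blood vessels of the brain, went another way than the other 6. It stood at 10.1, 3.74 and 4.71 CPM in T1, T2 and T3, against 5.06, 5.44 and 5.49 CPM in C1, C2 and C4. T1 was highest, C4 was not low, and every library's counting interval overlapped that of its neighbours in the order. The log2 fold change was 0.21, and -0.35 without T1. T1 did not stand out in 11 endothelial genes, whose summed level was 269, 277 and 282 CPM in TEPP-46, against 216, 295 and 250 CPM in vehicle. Slco1a4, an organic anion transporter of brain vessels, was highest in T1 at 50.5 CPM and between 24.5 and 32.0 CPM elsewhere. It is a single gene of that list, whose sum was highest in C2.

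**Figure D1:**
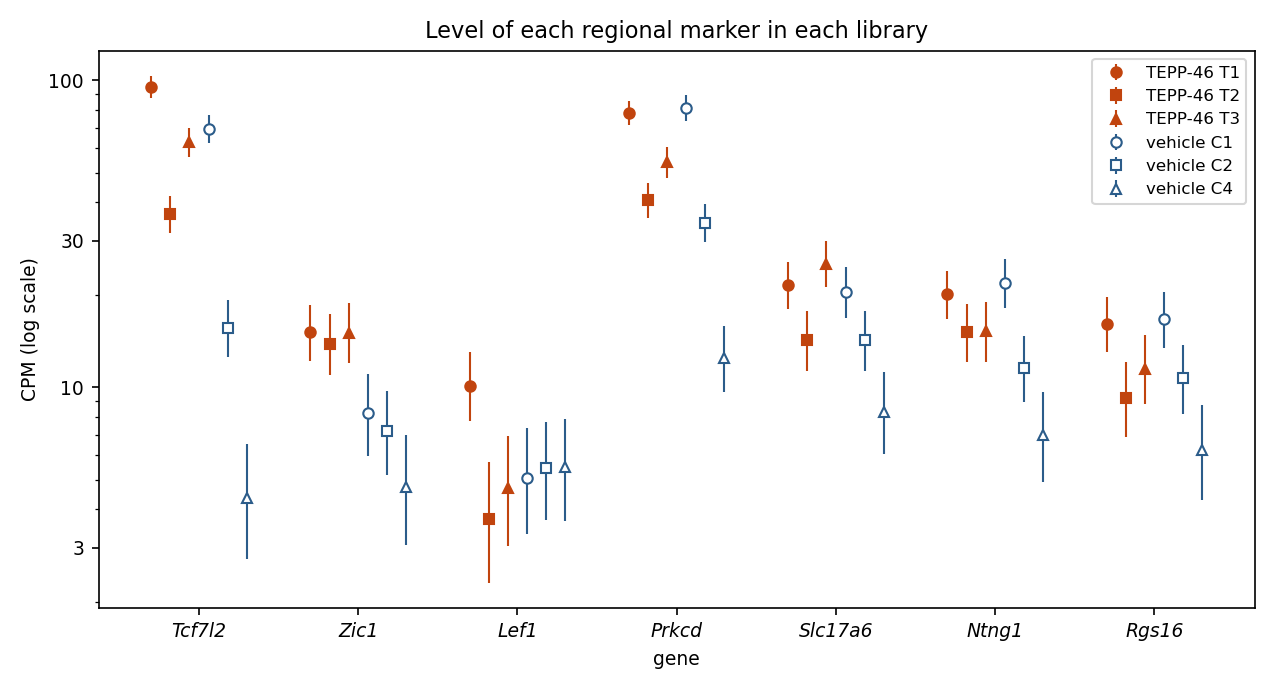
Level of the 7 regional markers in CPM (log axis) in each library; filled points are TEPP-46 and open points vehicle, and bars are 95% counting intervals. C4 is lowest for every gene but Lef1, and the Zic1 points of TEPP-46 lie above those of vehicle.

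Across the 7 genes, the summed level was 256, 134 and 189 CPM in T1, T2 and T3, against 223, 99.1 and 48.6 CPM in C1, C2 and C4. C4 was the lowest library for 6 of 7 genes and T2 for Lef1. T1 was highest for 3 genes, C1 for 3 and T3 for 1. Over all genes tested, C4 was lowest for 25.3% and highest for 24.2%, the largest share of any library at both ends. The 6 of 7 lay above that share of 25.3%. Nothing is read from it, since the 7 genes were chosen by their levels in these libraries. Among the vehicle libraries the summed level of the 7 genes was highest in C1 and lowest in C4. Tcf7l2 and Prkcd gave the most to it in C1 and C2. In C4 Prkcd gave the most, at 12.5 CPM, and Tcf7l2 the least, at 4.35 CPM. All 7 log2 fold changes were above 0, with a median of 0.43, against a median of 0.01 and 51.1% above 0 over all genes tested. The number above 0 was 5 without T1 and 5 without C4, with medians of 0.16 and 0.22. All 7 genes passed the low-count filter. Over all genes the libraries were similar in depth, with 5286426 to 6025064 counts, and edgeR called 0% of 14441 genes at an adjusted p under 0.05. At an unadjusted p under 0.05, 1.88% of genes had a higher and 4.05% a lower level with TEPP-46, while DESeq2 called 3 higher and 85 lower, 0.585% of those it gave an adjusted p.

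Other genes of the thalamus, taken as a list of 15, had a less wide range than the 7. Their summed level was 419, 303 and 318 CPM in T1, T2 and T3, against 334, 222 and 251 CPM in C1, C2 and C4. Of the 12 that passed the filter, 11 had a log2 fold change above 0 and the list's median was 0.62, and none was called by edgeR in either direction. The 3 most abundant were Adarb1, an RNA editing enzyme, Cacna1g, the low-voltage calcium channel behind thalamic burst firing, and Calb2, the calcium buffer calretinin of midline thalamus. Cacna1g stood at 74.5, 47.7 and 52.6 CPM in TEPP-46, against 48.5, 39.6 and 41.0 CPM in vehicle, and its log2 fold change was 0.42 (SE 0.19, edgeR adjusted p = 0.840). Calb2 stood at 34.5, 30.2 and 54.5 CPM in TEPP-46, against 31.6, 25.1 and 10.8 CPM in vehicle, and its log2 fold change was 0.80 (SE 0.37, edgeR adjusted p = 0.856). Adarb1 had 193, 149 and 124 CPM in TEPP-46, against 137, 117 and 150 CPM in vehicle, and did not follow C4 down. These named genes overlapped between the groups.

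A pair of thalamic genes was named after their values were seen. Shox2, a transcription factor of thalamic and habenular neurons, stood at 2.66, 4.27 and 8.67 CPM in T1, T2 and T3, against 8.61, 0 and 0.189 CPM in C1, C2 and C4. Its 0 in C2 allows a level of up to the equivalent of 3 counts, and the levels split the vehicle libraries as those of Tcf7l2 did. Amotl1, which binds tight junction proteins, was the 1 list member without overlap, at 4.98, 5.16 and 3.96 CPM in TEPP-46 against 3.75, 2.81 and 1.89 CPM in vehicle, with an edgeR adjusted p of 0.865.

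The neighbouring regions did not share one pattern across the libraries. Levels were compared on a centred scale, log2(CPM + 1) minus each gene's mean over the 6 libraries, averaged over a list. On this scale the 7 markers stood at 0.72, -0.04 and 0.34 in T1, T2 and T3, against 0.44, -0.33 and -1.12 in C1, C2 and C4. Choroid plexus, the tissue that makes cerebrospinal fluid, had the steepest split: 0.98, 0.41 and 1.06 in TEPP-46, against 1.05, -1.77 and -1.74 in vehicle. Its most abundant gene Ttr, the thyroxine carrier transthyretin, was at 3151, 1778 and 3161 CPM in TEPP-46, against 4053, 0.526 and 13.6 CPM in vehicle. Ttr was near 0 in C2 and C4, while C1 held more of it than any TEPP-46 library. The 12 choroid plexus genes tested all had a log2 fold change above 0, with a median of 1.11, and none was called by edgeR. The median was 3.80 without C1, 0.64 without C2 and 0.57 without C4.

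Hypothalamic genes gave a different order. The orexin gene Hcrt stood at 2.82, 70.6 and 34.5 CPM in T1, T2 and T3, against 0.936, 52.1 and 0.378 CPM in C1, C2 and C4. Pmch, which encodes melanin-concentrating hormone of the lateral hypothalamus, stood at 17.1, 169 and 132 CPM in TEPP-46, against 19.5, 78.1 and 1.89 CPM in vehicle. Both were low in T1 and C1, the libraries highest in Tcf7l2 and Prkcd, and high in C2, which was low in them. Both were also lowest in C4, as Tcf7l2 and Prkcd were. The vasopressin gene Avp was at 102, 80.6 and 130 CPM in TEPP-46, against 59.0, 108 and 0.757 CPM in vehicle, so it set C4 apart from the other 5 libraries. Other genes of the list, Trh, Pomc and Agrp, were not low in C4, at 11.2, 11.9 and 8.32 CPM there. Of the 8 hypothalamic genes tested, 5 had a log2 fold change above 0 and 3 below, and none was called by edgeR.

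**Figure D2:**
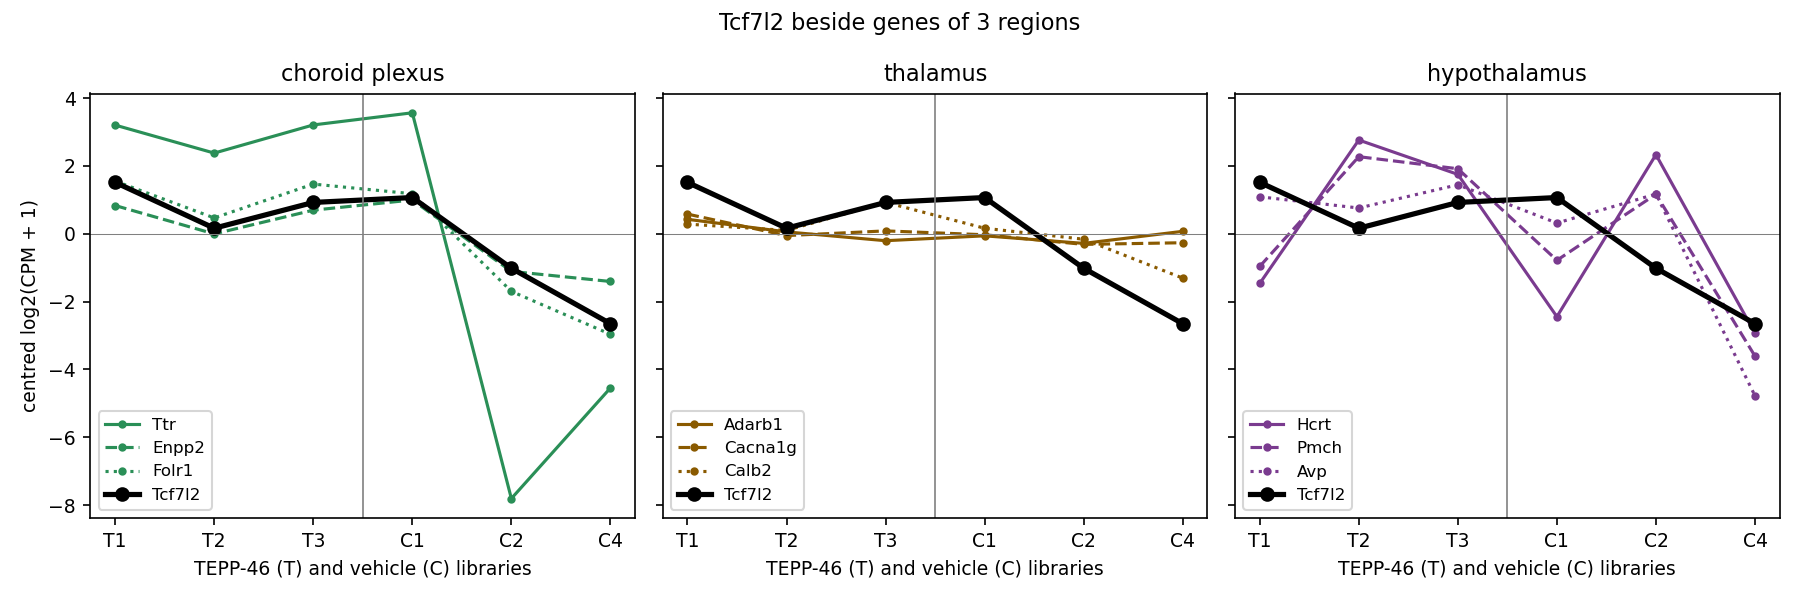
Centred log2(CPM + 1) of Tcf7l2 (black) in each library beside the 3 most abundant genes of the choroid plexus, thalamus and hypothalamus lists, with TEPP-46 libraries left of the line and vehicle libraries right of it. The choroid plexus genes are low in C2 and C4 as Tcf7l2 is, while Hcrt and Pmch are low in T1, C1 and C4.

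Striatal genes, the region in which experimental bleeds are often made, summed to 1388, 1716 and 1461 CPM in TEPP-46, against 745, 2032 and 1101 CPM in vehicle, with C1 low. Cortical genes summed to 700, 626 and 495 CPM in TEPP-46, against 716, 469 and 797 CPM in vehicle, and C4 was highest. Hippocampal genes stood at -0.14, -0.09 and 0.10 on the centred scale in TEPP-46, against 0.85, -0.35 and -0.38 in vehicle, so C1 was high in them as well as in thalamic genes. The habenula genes, which lie beside the dorsal thalamus, stood at 0.27, 0.08 and 0.43 in TEPP-46, against 0.04, -0.34 and -0.48 in vehicle. No gene of these 4 lists was called by edgeR. The vehicle libraries differed in the levels of the regional lists, and the cause was not tested. On the centred scale C1 was above the mean for thalamic, hippocampal and choroid plexus genes and below it for striatal ones. C2 was above it for striatal and hypothalamic genes and below it for thalamic and choroid plexus genes. C4 was above it for cortical genes and below it for thalamic, hypothalamic and choroid plexus genes. In 19 of the 22 lists the centred value spanned a smaller range among the TEPP-46 than among the vehicle libraries, and for the 7 markers it spanned 0.76 in TEPP-46 and 1.56 in vehicle. The part of these differences in the log2 fold changes of the 7 markers was not tested.

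Several lists of glia were low in C4. Astrocyte genes outside the telencephalon, Agt, Slc6a11 and Itih3, summed to 74.7, 64.9 and 89.3 CPM in TEPP-46, against 45.3, 47.4 and 33.7 CPM in vehicle. C4 was lowest, and the summed level of every TEPP-46 library lay above that of every vehicle library. Slc6a11, a GABA transporter of astrocytes, and Itih3 were without overlap between the groups, and neither was called, with edgeR adjusted p of 0.380 and 0.730. Myelinating oligodendrocyte genes summed to 15556, 13355 and 14535 CPM in TEPP-46, against 13828, 13613 and 5446 CPM in vehicle, so C4 was also low in myelin. Newly formed oligodendrocyte genes, the glial stage that uses Tcf7l2, summed to 174, 181 and 216 CPM in TEPP-46, against 154, 212 and 66.4 CPM in vehicle. They were low in C4 but not in C2, where Tcf7l2 was low. The 6 neuron genes summed to between 3060 and 4450 CPM in all libraries, with C4 at 3802 CPM. Microglia genes summed to 764, 1048 and 1114 CPM in TEPP-46, against 733, 1615 and 468 CPM in vehicle, and red blood cell genes to 560, 645 and 748 CPM in TEPP-46, against 458, 1053 and 319 CPM in vehicle. Both were highest in C2 and lowest in C4. The 7 markers were likewise lowest in C4 for 6 of 7 genes, but they were highest in T1 or C1 for 6 of 7 genes.

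Ependymal genes, of the cells that line the ventricles, summed to 94.9, 98.2 and 98.4 CPM in TEPP-46, against 69.1, 82.4 and 25.3 CPM in vehicle. Basal forebrain and pallidum genes summed to 19.6, 22.6 and 17.1 CPM in TEPP-46, against 18.2, 22.8 and 7.0 CPM in vehicle. Both lists were lowest in C4. As for the astrocyte genes outside the telencephalon, the ependymal sum of every TEPP-46 library lay above that of every vehicle library. The same held for the habenula genes, at 47.3, 50.7 and 51.3 CPM in TEPP-46, against 40.3, 38.1 and 31.4 CPM in vehicle. Midbrain genes summed to 13.9, 14.9 and 21.7 CPM in TEPP-46, against 16.9, 14.2 and 9.46 CPM in vehicle. Cerebellar genes summed to between 12.4 and 18.2 CPM and meningeal fibroblast genes to between 62.4 and 93.3 CPM over the 6 libraries, and neither was lowest in C4. No gene of these lists was called by edgeR.

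**Figure D3:**
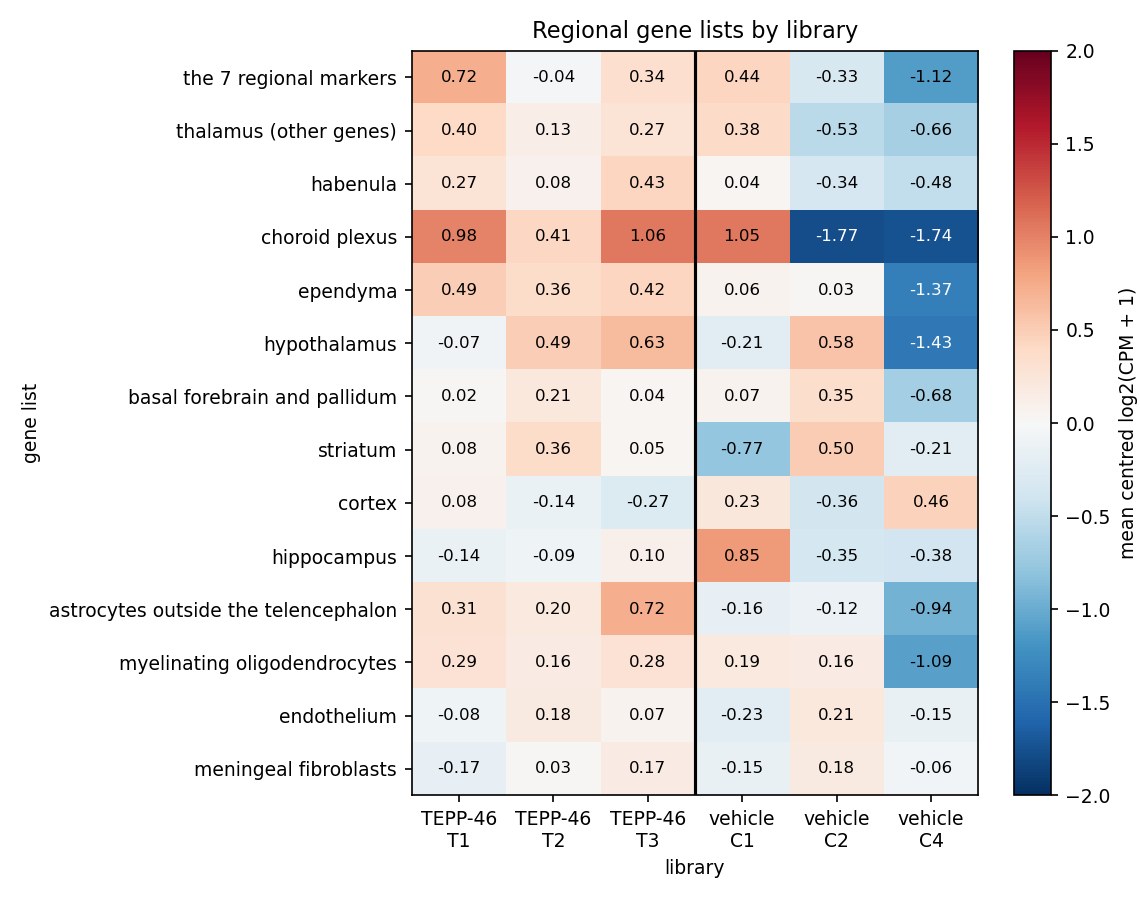
Mean centred log2(CPM + 1) of each gene list (rows) in each library (columns), with TEPP-46 libraries left of the line; red is above and blue below the list's mean over the 6 libraries. The markers and the choroid plexus list split C1 from C2 and C4, while the hypothalamus and striatum lists are high in C2.

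The level of Slc17a6 was also set against that of the other main glutamate transporter gene. Slc17a6 took 5.80%, 3.94% and 11.0% of the counts of Slc17a6 and Slc17a7 in T1, T2 and T3, against 5.11%, 5.98% and 2.13% in C1, C2 and C4. The exact 95% binomial interval, which covers counting error alone, was 1.55% to 2.85% in C4 and 9.31% to 12.9% in T3. Slc17a7 supplied most of the counts in every library and was lowest in T3, with 1083 counts against 1273 to 2110 elsewhere. The groups overlapped.

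The genes whose levels moved most like Tcf7l2 were mostly of the choroid plexus. Likeness was the root mean square difference of the centred log2(CPM + 1) values over the 6 libraries, so a smaller value is more alike, and 11247 genes with a mean of at least 5 CPM were compared. The 10 nearest included Folr1, the folate receptor of choroid plexus epithelium, at 0.40, 1500015O10Rik at 0.44, Calml4 at 0.45, the potassium channel genes Kcne2 at 0.55 and Kcnj13 at 0.58, and Enpp2, which makes lysophosphatidic acid, at 0.59. Ccdc153, of motile cilia, followed at 0.67 and Kl, the Klotho gene, at 0.70, and the other 2 were a locus that the table ties to 2900040C04Rik, at 0.63, and ONT.3800, at 0.68. Of these 10, 6 were among the 14 choroid plexus genes listed and 0 among the other thalamic genes listed, while the median difference over all genes was 1.45. Prkcd was at 0.62 from Tcf7l2, with 6 genes nearer, Ntng1 at 0.96, Slc17a6 at 0.99, Zic1 at 1.01, Rgs16 at 1.07 and Lef1 at 1.39, with 3656 genes nearer. With a minimum of 20 CPM 1 of the 10 was shared, and with a pseudocount of 0.25 6 were. Folr1 was at 21.9, 9.78 and 20.5 CPM in TEPP-46, against 16.7, 1.40 and 0 CPM in vehicle.

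The genes nearest to the other markers were of other kinds. Nearest to Prkcd were Plekhh1 at 0.29, Plekhg1 at 0.30, which is in the thalamus list, and Rdh5 at 0.31. Nearest to Zic1 were Dynlrb2, a dynein light chain of cilia in the ependyma list, at 0.15, a locus that the table ties to G530011O06Rik at 0.17, and Cd59a at 0.18. Nearest to Ntng1 were Rfx5 at 0.07 the neuronal adhesion gene Opcml at 0.10 and the locus ONT.10953 at 0.11. Nearest to Slc17a6 were Slc43a2 at 0.09, Chd7 at 0.10 and Adgre5 at 0.10, to Rgs16 Cpne1 at 0.10, the locus ONT.8318 at 0.10 and Fbxo42 at 0.12, and to Lef1 Xndc1 at 0.11, Abca7 at 0.12 and Yipf6 at 0.12. With 6 libraries many genes share a profile, and these lists are a description of it.

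The genes of the Wnt pathway, through which Tcf7l2 and Lef1 act on β-catenin targets, went different ways. Of 13 listed, 7 passed the filter, 5 had a log2 fold change above 0 and none was called by edgeR. The list's median was 0.16, and between -0.05 without T1 and 0.46 without C1. Ctnnb1, which encodes β-catenin, was at 392, 401 and 391 CPM in TEPP-46, against 397, 314 and 507 CPM in vehicle, and was highest in C4, where Tcf7l2 was lowest. Apc, a scaffold that marks β-catenin for destruction, was at 85.1, 71.7 and 52.9 CPM in TEPP-46, against 86.3, 52.8 and 48.0 CPM in vehicle, and was high in C1 and T1 and lowest in C4, as Tcf7l2 was high and low there. A pair of target genes of the pathway was named after their values were seen. Axin2, which feeds back on the pathway, had a log2 fold change of 0.51 and Nkd1, another feedback inhibitor, of -1.15, with edgeR adjusted p of 0.948 and 0.522. Of 22 paralogs of the 7 genes, 15 passed the filter, 9 had a log2 fold change above 0, with a median of 0.08, and none was called by edgeR. Tcf7 and Tcf7l1, the other TCF genes, stayed at or below 3.02 CPM in each library.

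Isoforms were counted by the authors from long reads, and several isoforms of a gene had nearly equal counts, so the counts of a gene's isoforms may not be independent and their intervals cover counting error only. Gene counts equalled the sum of isoform counts for all 7 genes. The 51-base exon of Tcf7l2 was in 58.7%, 73.5% and 59.8% of the counts that could be assigned in T1, T2 and T3, against 57.1%, 69.4% and 68.4% in C1, C2 and C4. The mean and SD were 64.0 ± 8.24% for the 3 TEPP-46 libraries and 65.0 ± 6.83% for the 3 vehicle libraries, so the means differed by less than the spread between libraries. The share in C4 rested on 19 counts, with an exact 95% interval of 43.4% to 87.4%. Isoforms that start inside Tcf7l2 made up 16.2%, 11.7% and 11.4% of its counts in T1, T2 and T3, against 12.4%, 4.49% and 0% in C1, C2 and C4. The 0 of 23 counts in C4 allows a share of up to 13.0%, which is above the shares measured in T2, T3, C1 and C2 and below that in T1. T1 and C2 had intervals that did not overlap, 13.3% to 19.5% against 1.24% to 11.1%. Isoforms that keep an intron made up 14.5%, 9.22% and 18.9% in TEPP-46, against 19.4%, 24.7% and 13.0% in vehicle.

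The 78-base stretch of Prkcd was in 52.7%, 59.4% and 51.9% of its counts in TEPP-46, against 55.8%, 55.1% and 59.1% in vehicle. Its share held near the same level although the level of the gene ranged 6.51-fold. The most upstream start of Prkcd supplied 86.8%, 75.5% and 86.1% of its counts in TEPP-46, against 80.6%, 77.6% and 78.8% in vehicle, with T2 low. The 66-base stretch of Ntng1 was in 31.4%, 34.1% and 30.9% of counts in TEPP-46, against 28.2%, 31.8% and 29.7% in vehicle. The 84-base stretch of Lef1 was in 60.7%, 47.6% and 44.0% of 61, 21 and 25 counts in TEPP-46, against 48.1%, 67.7% and 69.0% of 27, 31 and 29 counts in vehicle. The intervals of all 6 libraries overlapped for Ntng1 and Lef1. Such overlap is not a test, and differences between libraries in these shares were not tested. Rgs16 had a single isoform, and Slc17a6-201 held 572 of the 578 counts of Slc17a6.

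**Figure D4:**
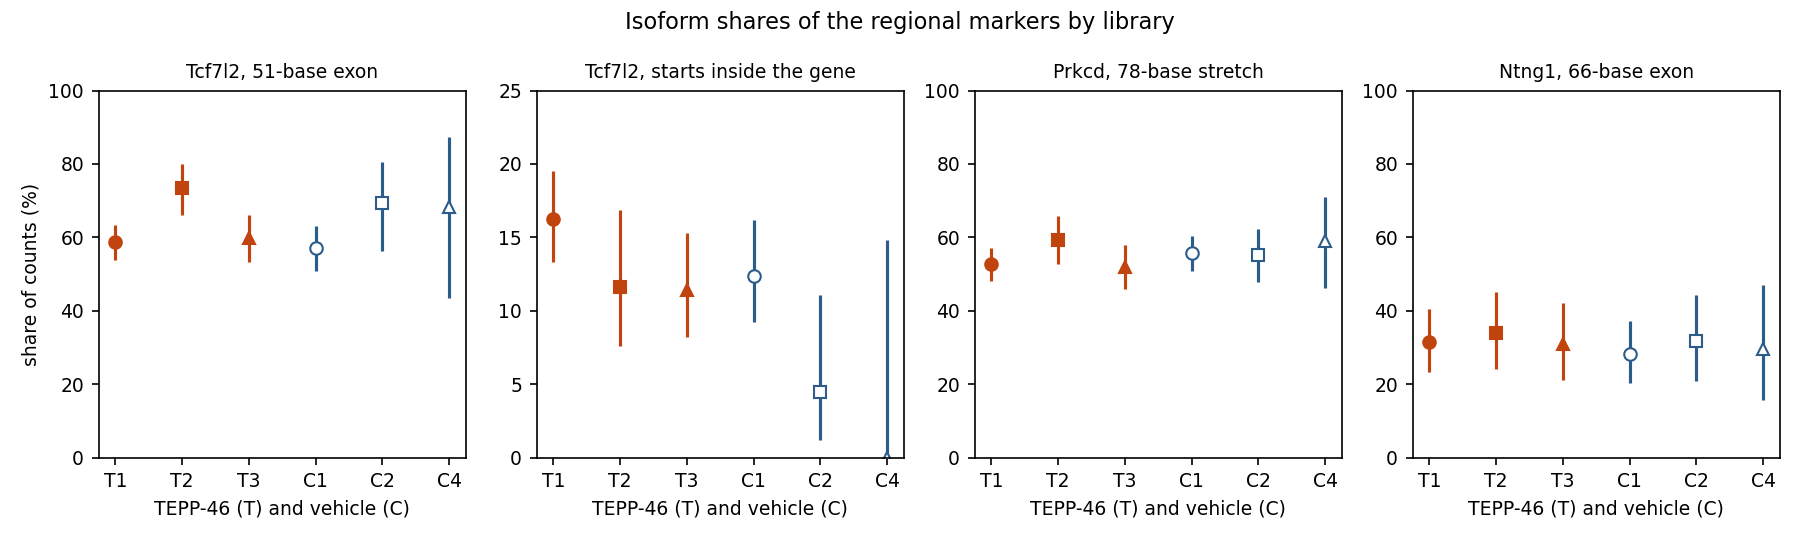
Share of counts (%) with an alternative coding stretch of Tcf7l2, Prkcd and Ntng1, and share of Tcf7l2 counts from isoforms that start inside the gene (axis to 25%), in each library; bars are exact 95% binomial intervals, filled points TEPP-46 and open points vehicle. The Prkcd and Ntng1 shares stay level, while the internal Tcf7l2 starts range between 0% in C4 and 16.2% in T1.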

How the data were processed

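RNA was reverse transcribed, amplified by PCR and sequenced as cDNA on a nanopore kit, per the labels' protocols. The authors deposited raw counts per gene and per isoform, per the file headers, and 12 more columns of values by library were left out. The submitters' processing notes name GRCm38 and DESeq 1.10.1; the sources used here name no aligner or counter. CPM was computed here from the deposited counts and each library's total. Isoforms matched GENCODE M21 by identifier and name in 44 of 44 cases. Members, gene lists and the naming rule (the 3 most abundant genes of each list without a call, and the nearest genes by profile) were chosen with earlier results of these data known.

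The test across genes was that of edgeR 4.0.16, run in R 4.3.3 (filterByExpr, TMM, robust quasi-likelihood F test, group alone, Benjamini-Hochberg adjusted p under 0.05), with DESeq2 1.42.0 as an alternative. Counting intervals are exact Poisson intervals and share intervals exact Clopper-Pearson intervals, both at 95%. The floor for a 0 is 3 counts. They cover counting error only, since PCR reads without molecular identifiers are not independent molecules. P-values weigh the difference between the groups against the spread between these libraries, which the labels do not tie to separate animals. The values of 1 of the 22 gene lists are not reported here.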

Additional observations from a re-analysis of the deposited data

How the results depend on the processing

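edgeR called 0 genes in TEPP-46 against vehicle; DESeq2 called 88, and leaving out 1 library in edgeR gave 0 to 43, the 43 being without C2. RLE scaling, total counts and no low-count filter gave 0. Of 77 values of the 7 members' log2 fold changes under other settings, 75 moved by less than 1 SD. That SD is of log2(CPM + 1) between libraries, pooled over both groups. It is wide, so the 75 are no measure of stability: Prkcd, at 0.43, counted as within it at 1.27 without C1. The 5 values below 0 were Lef1 (-0.35) and Rgs16 (-0.12) without T1, Prkcd (-0.01) and Rgs16 (-0.16) without C4, and Rgs16 (-0.13) with the replicate block. The other thalamic genes kept a median log2 fold change between 0.35 and 0.99 when 1 library was left out. Of 242 list medians, 212 moved by less than 1 SD of the list's centred values, pooled likewise, and 28 changed sign, in 14 lists. The cause was not tested.

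With the library number as a replicate block, a fit that uses the 2 numbers both groups share, edgeR called 0 genes, the log2 fold change of Tcf7l2 was 0.80 and the median of the other thalamic genes 0.42. The median of the 7 markers was 0.11 with the block, against 0.43 without it. With the block Zic1 was at 0.90, Lef1 at 0.28, Ntng1 at 0.11, Prkcd at 0.08, Slc17a6 at 0.03 and Rgs16 at -0.13. Each library's deviations from its group mean, in log2(CPM + 1), were correlated across genes between the groups. Same-numbered libraries were at 0.14 for number 1 and 0.03 for number 2. Libraries with different numbers were between -0.28 and 0.28, so the numbers are not taken as pairs.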
